A study of Mus musculus with 5 samples.

Results

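The bone morphogenetic protein (BMP) system of the liver sinusoid was followed through 10 genes. They were the ligands Bmp2, Bmp4 and Bmp6, the secreted modulator Bmper, the receptors Bmpr2, Acvrl1 (ALK1) and Eng (endoglin), the inhibitory SMADs Smad6 and Smad7, and the target gene Id1. They were chosen by name from 19736 genes with a molecule in any library, and all 10 were measured in every library. The tested condition was partial ligation of the inferior vena cava (pIVCL), which raises hepatic venous pressure and models congestive hepatopathy. The pIVCL group held 3 libraries of wild-type males that had the ligation at 9 weeks of age, with the liver taken after a further 2 weeks. The sham group held 2 libraries of wild-type males of the same age at surgery, with the liver taken 2 weeks after a sham operation. No engineered allele and no drug is named for any library, and both groups shared the same enzymatic perfusion and the same depletion of hepatocytes, dead cells and erythrocytes before single cells were captured on the BD Rhapsody system. The labels do not say whether the numbered samples of a group are different mice, so p-values measure the spread between libraries.

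BMPs are secreted dimers that bring type I and type II receptors together on the cell surface. The active receptor phosphorylates SMAD1, SMAD5 and SMAD9, which join SMAD4 and enter the nucleus, where Id1, Smad6 and Smad7 are among the induced genes. In the liver, sinusoidal endothelial cells are a known source of BMP2 and BMP6, which act on hepatocytes to raise the iron hormone hepcidin, and endothelial cells themselves respond through ALK1 and endoglin to BMP9 (Gdf2) and BMP10, both made by stellate cells.

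The pIVCL libraries held 12448260 to 24400965 molecules in 2680 to 5000 cells, and the sham libraries 30523228 and 25035721 molecules in 4735 and 4056 cells. Library pIVCL 1 shared batch 2021.3 with both sham libraries, whereas pIVCL 2 and pIVCL 3 formed batch 2021.7, so batch and ligation can be told apart only through pIVCL 1. Any pair of libraries shared 8 to 30 cell labels. Cells were clustered without the 10 genes, and clusters were named from marker lists. The endothelial class held 1518, 1641 and 719 cells in the pIVCL libraries, against 2692 and 2361 in the sham libraries, and its 8 markers were each detected in 89.9 to 99.6% of its cells. Different clusters filled it in the groups. Cluster 0 (led by Esm1 and Lyve1) and the periportal cluster 1 took 36.2 and 37.2%, 49.1 and 34.3%, and 59.0 and 22.0% of endothelial cells in pIVCL 1, pIVCL 2 and pIVCL 3. Clusters 2, 3 and the pericentral cluster 5 took 22.7, 28.3 and 22.5% in sham 1 and 30.1, 22.6 and 22.1% in sham 2. Levels below are in CPM, the molecules of a gene scaled to a common total per class and library, and library values run pIVCL 1, pIVCL 2, pIVCL 3, then sham 1, sham 2.

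In endothelial cells Bmp4 rose after pIVCL, and it was the 1 gene of the 10 that passed edgeR's quasi-likelihood test at a Benjamini-Hochberg adjusted p of 0.05. In the same test 605 of 11334 genes passed (5.34%), 296 of them higher (2.61%) and 309 lower (2.73%) in pIVCL. Bmp4 lost the threshold in 8 of 17 alternatives. Bmp2 had lower values in every pIVCL library and missed the threshold, which it passed in 6 of 17 alternatives (adjusted p between 3.42e-06 and 0.344). An unadjusted p under 0.05 was reached by 5 of the 10, against 23.7% of all genes tested. The median log2 fold change of the 10 genes was 0.27, and that of all genes tested was 0.00.

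**Figure D1:**
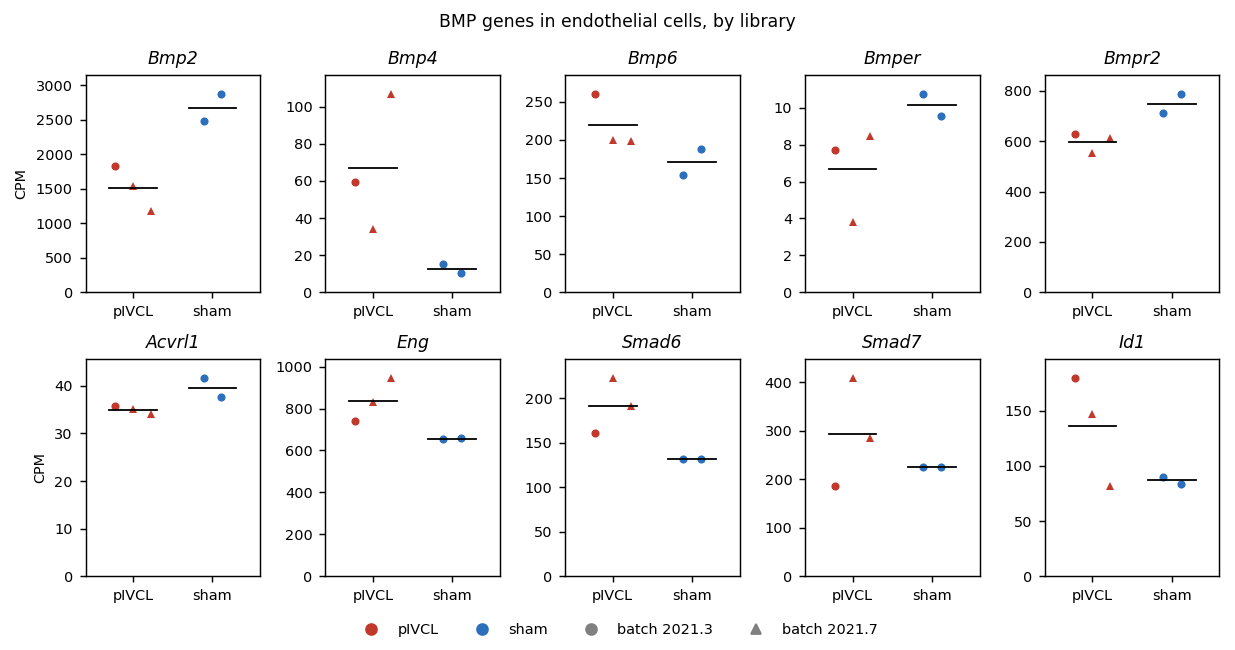
CPM in endothelial cells (vertical axis, from 0) for each of the 10 genes, with 1 point per library (circles batch 2021.3, triangles batch 2021.7) and a line at the group mean. The 3 pIVCL points of Bmp4 lie between 33.9 and 107, above both sham points at 15.1 and 10.3, and those of Bmp2 lie between 1172 and 1833, below both sham points at 2487 and 2870.

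Bmp2 encodes a ligand that sinusoidal endothelium supplies to hepatocytes. Its endothelial level was 1833, 1539 and 1172 CPM in the pIVCL libraries, against 2487 and 2870 in the sham libraries. The groups did not overlap, as was true of 43.4% of all genes tested, and pIVCL 1, the only pIVCL library of the sham batch, was nearest to sham. The means were 1515 ± 331 in pIVCL (SD, n = 3) and 2679 ± 271 in sham (SD, n = 2), a log2 fold change of -0.90 ± 0.22 (SE), with an edgeR adjusted p of 0.0534. Within batch 2021.3, which holds 1 pIVCL library and so no spread between pIVCL libraries, the log2 fold change was -0.60. With batch as a term in the model it was -0.59 (edgeR adjusted p = 0.204). The median endothelial cell carried 7, 5 and 4 Bmp2 molecules in the pIVCL libraries and 13 and 14 in the sham libraries, while the median endothelial cell held 4197.5, 4126 and 4495 molecules of all genes in pIVCL and 5152.5 and 4924 in sham.

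With every cell thinned to 1000 molecules, Bmp2 was detected in 74.6, 65.1 and 57.9% of pIVCL and 84.1 and 86.9% of sham endothelial cells (exact two-sided permutation p = 0.2, where 0.1 is the smallest that 3 against 2 libraries allow). Unthinned shares were 94.7, 89.0 and 85.7% in pIVCL and 96.5 and 97.0% in sham. T cells, which should lack Bmp2, gave thinned shares of 1.27, 13.9 and 0% in pIVCL and 8.28 and 3.12% in sham, at medians of 2688, 2765.5 and 2386 molecules per cell in pIVCL and 3331 and 3133.5 in sham. Endothelial cells held 93.1, 68.8 and 82.5% of all Bmp2 molecules of the pIVCL libraries, against 92.4 and 89.7% of those of the sham libraries.

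The lower Bmp2 values were present in each endothelial cluster taken alone. In 9 of 9 endothelial clusters every pIVCL library with cells was below both sham libraries, although pIVCL 2 and pIVCL 3 held only 12 and 7 cells of cluster 2 and 27 and 5 of cluster 3, and the pIVCL libraries only 12, 2 and 0 of cluster 5. The clusters come from the same 5 libraries, so they do not repeat the comparison. Libraries of the groups did not overlap, in either direction, for 26.4, 26.1 and 34.1% of genes in clusters 9, 14 and 18. The share of all genes with 9 of 9 was not computed. Clusters with at least 20 cells in every library were also fitted on their own, a step chosen after the data were seen. Bmp2 fell in periportal cluster 9, to 773, 649 and 539 in the pIVCL libraries, against 1512 and 1733 in the sham libraries, a log2 fold change of -1.32 ± 0.18 (SE, edgeR adjusted p = 0.0014). There 1 of 9 of the genes tested passed, against 0.406% of 6643 genes, and 5 at an unadjusted p under 0.05, against 10.3%. Bmp2 also fell in cluster 18, which carries pericentral and large-vessel markers (led by Edn1, Vwf, Selp, Wnt9b and Rspo3), with 644, 475 and 543 in pIVCL and 1091 and 1106 in sham (log2 fold change -1.03 ± 0.22, edgeR adjusted p = 0.00177), though within batch 2021.3 it missed the threshold (-0.77, adjusted p = 0.0567). In cluster 0 it had 2047, 1857 and 1396 in pIVCL and 2829 and 2762 in sham without passing (-0.66 ± 0.18, edgeR adjusted p = 0.132), and clusters 1 (-0.74 ± 0.21, adjusted p = 0.219) and 14 (-0.56 ± 0.26, adjusted p = 0.483) did not pass either. In cluster 1, 0 of 9 of the genes tested passed in edgeR and 4 at an unadjusted p under 0.05, against 0.393% of 8902 genes adjusted and 11% unadjusted. DESeq2, run without the filter on low counts, gave 1 of 10 there, against 38 of 14189 genes. In cluster 14, 0 of 9 passed in edgeR and 4 at an unadjusted p under 0.05, against 0.088% of 3411 genes adjusted and 10.1% unadjusted. DESeq2 gave 0 of 10 there, against 13 of 13008 genes.

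Bmp4 encodes a ligand close in sequence to BMP2, and few endothelial cells held a molecule of it. The endothelial class held 419, 240 and 364 Bmp4 molecules in the pIVCL libraries, against 219 and 126 in the sham libraries, which is 59.7, 33.9 and 107 CPM in pIVCL and 15.1 and 10.3 in sham. All pIVCL libraries lay above both sham libraries. The means were 66.8 ± 36.9 in pIVCL (SD, n = 3) and 12.7 ± 3.37 in sham (SD, n = 2), and the log2 fold change was 2.26 ± 0.46 (SE, edgeR adjusted p = 0.0475). The edgeR adjusted p was 0.156 without pIVCL 1 and 0.385 with batch as a term, so the call was lost in both. With 1 library left out the log2 fold change ran from 1.84 to 2.58. Within batch 2021.3, which holds 1 pIVCL library, it was 2.18. Thinned to 1000 molecules, 2.77, 2.56 and 5.02% of pIVCL and 0.97 and 0.55% of sham endothelial cells had a Bmp4 molecule (exact two-sided permutation p = 0.1), against 0, 1.27 and 1.26% of pIVCL and 0.64 and 1.04% of sham T cells. Over the whole class the share in sham was thus within the range of T cells, and that in every pIVCL library was above it. There were only 79, 158 and 159 T cells in pIVCL and 157 and 192 in sham, and they carried endothelial marker molecules, up to 5675 CPM in pIVCL 2. Sham endothelial Bmp4 was not spread evenly. In cluster 18 a Bmp4 molecule was present, without thinning, in 35 of 67 and 22 of 38 sham cells.

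Most endothelial Bmp4 sat in 1 small cluster. Cluster 18 held 80.7, 69.2 and 67.3% of the endothelial Bmp4 molecules in the pIVCL libraries and 71.2 and 74.6% in the sham libraries, with 3.95, 3.11 and 5.70% of the endothelial cells in pIVCL and 2.49 and 1.61% in sham. The share of cluster 18 cells moved with the Bmp4 level of the class, and without cluster 18, an alternative added after the data were seen, the log2 fold change of the class was 2.33 (edgeR adjusted p = 0.0721). Within cluster 18 Bmp4 reached 797, 607 and 1024 CPM in the pIVCL libraries, against 450 and 456 in the sham libraries. This difference passed too (log2 fold change 0.78 ± 0.24, edgeR adjusted p = 0.0466), and it did not pass in 6 of 11 alternatives, among them those without sham 1 (adjusted p = 0.339), sham 2 (0.275) or pIVCL 3 (0.254). A Bmp4 molecule was present in 55 of 60, 38 of 51 and 37 of 41 cluster 18 cells in pIVCL and in 35 of 67 and 22 of 38 in sham.

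Outside the large-vessel and cycling clusters few Bmp4 molecules were found in sham. There 61, 51 and 103 molecules were found in 1407, 1525 and 632 cells of the pIVCL libraries, and 5 and 2 molecules in 2441 and 2164 cells of the sham libraries. Summed over libraries, the level was 47.3 times higher in pIVCL (95% interval 22.6 to 119, covering counting error only), and the edgeR adjusted p was 0.0212. The interval treats molecules as independent and is too narrow where cells hold several. The pIVCL molecules lay in 32, 35 and 46 cells, with up to 6, 4 and 9 in a cell. The ratio was 30.2 without pIVCL 3 and 76.1 without sham 1, and it lay between these without any other library. Of these molecules 55, 50 and 103 in pIVCL and 1 and 1 in sham came from cluster 0, where the ratio of levels was 5.58 (95% counting interval 1.52 to 46.4, and 0.942 to 211 without sham 1) and the edgeR adjusted p 0.463. The sham libraries held only 43 and 41 cells of cluster 0, against 550, 805 and 424 in pIVCL.

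Bmp6 encodes the ligand that, with BMP2, sets hepcidin in the mouse liver. Its endothelial level was 260, 200 and 198 in the pIVCL libraries and 154 and 188 in the sham libraries. The groups did not overlap by a narrow margin, and the log2 fold change of 0.28 ± 0.18 did not pass (SE, edgeR adjusted p = 0.381). Bmp6 rose in cluster 18, to 160, 98.7 and 113 in pIVCL, against 28.9 and 63.0 in sham (log2 fold change 1.50 ± 0.39, edgeR adjusted p = 0.0129), from 68, 27 and 27 molecules in pIVCL and 10 and 13 in sham. It did not pass without sham 1 (0.93, adjusted p = 0.440), pIVCL 1 (1.23, 0.0568) or pIVCL 3 (1.59, 0.0566), nor with DESeq2 (adjusted p = 0.264). In cluster 14, which carries periportal and large-vessel markers, it had 124, 194 and 195 in pIVCL and 71.6 and 83.3 in sham without passing (1.08 ± 0.29, edgeR adjusted p = 0.155). In the other 7 endothelial clusters the libraries of the groups overlapped. With Bmp2 and Bmp4, Bmp6 made 3 of 9 genes that passed in cluster 18, where 5.39% of 5433 genes passed, and 4 reached an unadjusted p under 0.05, against 16.7%. Libraries of the groups did not overlap for 34.1% of genes in cluster 18 and 26.1% in cluster 14.

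**Figure D2:**
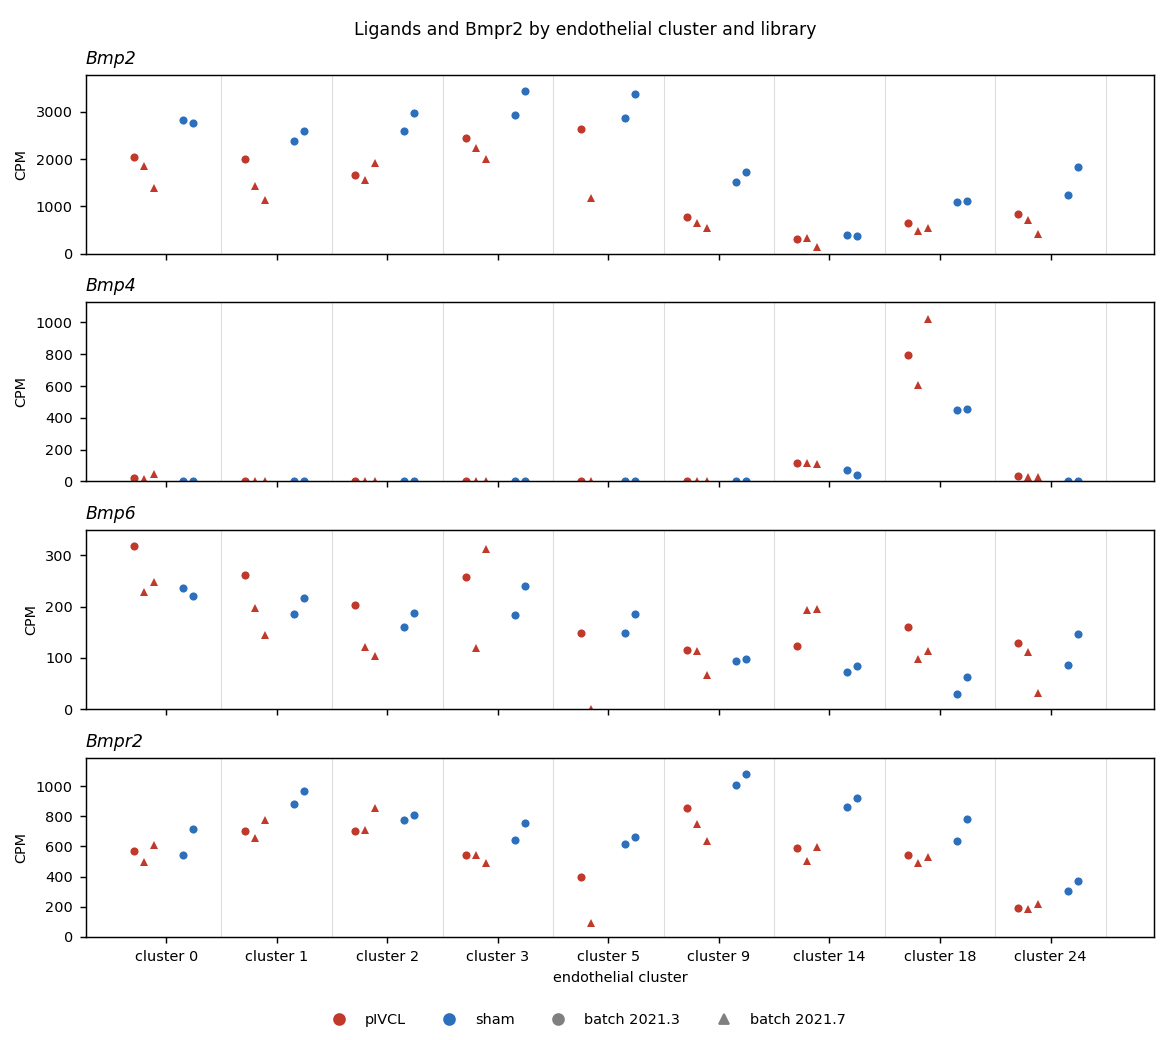
CPM (vertical axes, from 0) of Bmp2, Bmp4, Bmp6 and Bmpr2 in each of the 9 endothelial clusters, with 1 point per library (pIVCL left of sham within a cluster). Bmp2 points of pIVCL lie below those of sham in every cluster, Bmp4 is highest in cluster 18 (607 to 1024 in pIVCL, 450 and 456 in sham), and Bmp6 separates the groups in clusters 14 and 18.

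The promoters of Bmp4 and Bmp6, whose levels rose in cluster 18, and of Bmpr2, a receptor gene with lower values in pIVCL, are shown as the 250 bases before the start of each gene, from RefSeq on GRCm38.p6. Capitals mark matches to GGCGCC, the GC-rich element that SMAD1 and SMAD5 bind.
Bmp4 (chr14:46390670-46390919, minus strand): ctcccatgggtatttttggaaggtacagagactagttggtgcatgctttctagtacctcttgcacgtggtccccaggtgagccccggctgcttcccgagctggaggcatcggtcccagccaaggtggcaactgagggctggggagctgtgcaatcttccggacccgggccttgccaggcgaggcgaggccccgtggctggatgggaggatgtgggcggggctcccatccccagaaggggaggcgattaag
Bmp6 (chr13:38345466-38345715, plus strand): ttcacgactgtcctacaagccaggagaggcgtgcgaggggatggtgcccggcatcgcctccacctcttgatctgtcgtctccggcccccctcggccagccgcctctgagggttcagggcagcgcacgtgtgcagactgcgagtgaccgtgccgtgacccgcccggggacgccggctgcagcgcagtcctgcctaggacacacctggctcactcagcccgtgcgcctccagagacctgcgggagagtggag
Bmpr2 (chr1:59764029-59764278, plus strand): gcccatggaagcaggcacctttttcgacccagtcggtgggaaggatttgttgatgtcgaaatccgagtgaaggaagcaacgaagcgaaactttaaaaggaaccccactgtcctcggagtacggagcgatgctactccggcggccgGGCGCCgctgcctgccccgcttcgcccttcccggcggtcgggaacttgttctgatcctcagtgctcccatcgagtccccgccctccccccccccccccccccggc
The Bmpr2 window held 1 GGCGCC, which reads the same on both strands, and those of Bmp4 and Bmp6 held none. This motif occurred in 9.54% of 27025 mouse promoter windows. GGAATG, bound by TEAD factors, was searched on both strands, was in none of the 3 windows and occurred in 12.6% of all windows. CACCC, bound by KLF factors, was likewise in none of the 3 windows and occurred in 51.3% of all windows. Of the windows searched but not shown, those of Eng and Smad6 held CACCC and that of Bmper did not.

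Bmper encodes a secreted protein that binds BMPs and tunes their access to receptors. It gave few molecules in endothelial cells, with 54, 27 and 29 molecules in the pIVCL libraries and 156 and 117 in the sham libraries, or 7.69, 3.82 and 8.50 CPM in pIVCL and 10.7 and 9.57 in sham. All pIVCL libraries were lower, and the log2 fold change of -0.73 ± 0.32 did not pass (SE, edgeR adjusted p = 0.206). Periportal clusters 9 and 14 carried the highest endothelial values, with 53.5, 9.28 and 53.9 in pIVCL and 23.8 and 25.5 in sham for cluster 9, and 14.5, 20.8 and 61.6 in pIVCL and 47.3 and 60.3 in sham for cluster 14.

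Bmpr2 encodes the type II receptor that pairs with ALK1 in endothelium. Its endothelial level was 628, 554 and 611 in the pIVCL libraries, against 712 and 786 in the sham libraries. The groups did not overlap, and the log2 fold change of -0.42 ± 0.13 did not pass (SE, edgeR adjusted p = 0.112). In 7 of 9 endothelial clusters every pIVCL library with cells was below both sham libraries, and the share of all genes with such a count was not computed. The clusters come from the same 5 libraries, and some held few pIVCL cells. In pIVCL 2 and pIVCL 3 there were 27 and 5 cells of cluster 3, and in the pIVCL libraries 12, 2 and 0 of cluster 5. In cluster 14 the values were 589, 506 and 595 in pIVCL and 859 and 920 in sham (log2 fold change -0.71 ± 0.20, edgeR adjusted p = 0.155). Libraries of the groups did not overlap for 26.1% of genes there. In clusters 0 and 2 the groups overlapped.

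Acvrl1, which encodes the type I receptor ALK1, had 35.7, 35.2 and 34.0 CPM in pIVCL endothelial cells and 41.6 and 37.6 in sham endothelial cells (log2 fold change -0.26 ± 0.13 SE, edgeR adjusted p = 0.275). The groups did not overlap, but the gap between pIVCL 1 and sham 2 was small. Eng, which encodes the co-receptor endoglin that concentrates BMP9 and BMP10 at ALK1, had 740, 831 and 944 in pIVCL and 655 and 658 in sham. Its log2 fold change of 0.26 ± 0.13 did not pass (SE, edgeR adjusted p = 0.275). In cluster 18, the endothelial cluster with the highest Eng level, the values were 1193, 1246 and 1509 in pIVCL and 1022 and 960 in sham (edgeR adjusted p = 0.428).

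Smad6 encodes an inhibitory SMAD that holds back the BMP branch. Its endothelial level was 160, 222 and 191 in the pIVCL libraries and 132 and 131 in the sham libraries, without overlap (log2 fold change 0.45 ± 0.15 SE, edgeR adjusted p = 0.125). Smad7, which encodes an inhibitory SMAD of both the BMP and the TGF-β branch, had 186, 408 and 286 in pIVCL and 225 and 225 in sham. Here pIVCL 1 was the lowest library and the other pIVCL libraries the highest, and the log2 fold change of 0.29 ± 0.29 (SE, edgeR adjusted p = 0.584) became -0.048 without pIVCL 2 and -0.32 within batch 2021.3.

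Id1 encodes an inhibitor of differentiation that BMP receptors induce directly. Its endothelial level was 179, 147 and 82.1 in the pIVCL libraries, against 90.1 and 83.9 in the sham libraries. The groups overlapped through pIVCL 3, and the log2 fold change of 0.58 ± 0.32 did not pass (SE, edgeR adjusted p = 0.313). It passed in 4 of 17 alternatives, among them without pIVCL 3 (edgeR adjusted p = 0.0434), and the adjusted p ran up to 0.762. Another of the 4 was the fit within batch 2021.3, which holds 1 pIVCL library and so no spread between pIVCL libraries. In cluster 9 the Id1 values were 364, 225 and 350 in pIVCL and 142 and 179 in sham, without overlap, as for 26.4% of genes there (log2 fold change 0.92 ± 0.23, edgeR adjusted p = 0.101). Hepatocyte marker molecules in the endothelial class were at 246, 204 and 215 CPM in pIVCL and 120 and 69.6 in sham, and erythroid marker molecules at 69.1, 475 and 1265 in pIVCL and 130 and 62.3 in sham, and their part in the levels above was not tested.

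Across cell classes the 10 genes had different homes. Bmp2 was highest in endothelial cells, with 1980.3 ± 692 CPM (SD over 5 libraries), followed by stellate cells with 525 ± 224. Among the named classes, Bmp4 was higher in stellate cells, at 115 ± 31.1, than in endothelial cells, at 45.1 ± 39.5, and these spreads overlapped. Of all Bmp4 molecules, unnamed clusters held 12.9, 26.4 and 25.6% in pIVCL and 24.9 and 37.7% in sham. Stellate cells held 28.9, 28.7 and 10.3% in pIVCL and 11.6 and 6.04% in sham. In the unnamed cluster 17, described below, Bmp4 did not pass (log2 fold change 0.80 ± 0.27 SE, edgeR adjusted p = 0.205). Bmp6 was highest in endothelial cells, at 199.99 ± 38.2, and next came cholangiocytes at 51.7 ± 12.03 over the libraries with at least 20 such cells. Acvrl1 was higher in Kupffer cells, at 96.8, 117 and 114 in pIVCL and 84.5 and 78.9 in sham, than in endothelial cells. Id1 averaged 480 ± 77.3 in pIVCL and 172 ± 7.74 in sham cholangiocytes, and 206 ± 99.8 in pIVCL and 202 ± 15.3 in sham Kupffer cells, so that cholangiocytes stood highest in pIVCL and Kupffer cells in sham (SD, n = 3 and 2). Eng, Bmpr2, Smad6 and Smad7 were highest in endothelial cells. The order for Bmper differed by group. In pIVCL its stellate level was 8.52, 15.4 and 16.2 CPM, from 11, 28 and 10 molecules, and so above the endothelial level of each library. In sham its stellate level was 6.36 and 0 CPM, from 2 and 0 molecules, and below the endothelial level. The difference of the pIVCL effect on Bmper between these classes was not tested.

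**Figure D3:**
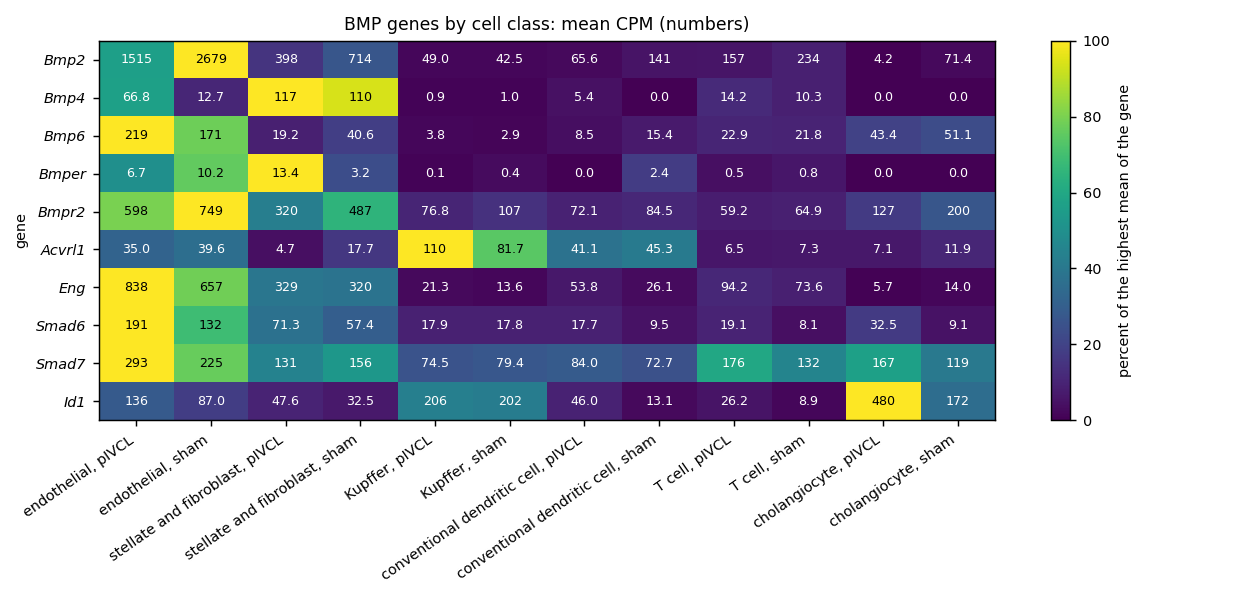
Mean CPM over libraries (numbers) of each gene (rows) in 6 cell classes, pIVCL left of sham, coloured by the percent of the highest mean in the row, so colours compare classes within a gene and not genes with each other. Bmp2, Bmp6, Bmpr2, Eng, Smad6 and Smad7 are highest in endothelial columns, Bmp4 in stellate columns and Acvrl1 in Kupffer columns, whereas Id1 is highest in cholangiocytes among pIVCL columns and in Kupffer cells among sham columns, and Bmper in stellate cells among pIVCL columns and in endothelial cells among sham columns.

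Stellate cells, the retinoid-storing mesenchymal cells of the sinusoid, here named from markers shared in part with fibroblasts, gave 0 of 8 genes past the threshold in edgeR (0.373% of 7779 genes passed). In DESeq2 it was 0 of 10 (75 of 14264 genes passed). In edgeR 1 reached an unadjusted p under 0.05 (10.2% of all genes). There were 269, 321 and 99 stellate cells in pIVCL and only 70 and 29 in sham. Stellate Bmp2 was 234, 505 and 457 in pIVCL and 575 and 853 in sham (log2 fold change -0.72 ± 0.34 SE, edgeR adjusted p = 0.531). Endothelial marker molecules among stellate cells were 412, 3304 and 2454 CPM in pIVCL and 2494 and 5385 in sham, with the libraries of each group in the same order as for Bmp2, and their part in it was not tested. Stellate Bmp4 was 162, 90.1 and 100 in pIVCL and 130 and 90.4 in sham, and the groups overlapped.

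Kupffer cells, the resident macrophages, gave 0 of 7 genes past the threshold in edgeR (0.123% of 9779 genes passed). In DESeq2 it was 0 of 10 (112 of 15805 genes passed). In edgeR 2 reached an unadjusted p under 0.05 (13.8% of all genes). Different clusters filled the class, since cluster 4 held 143, 57 and 19 cells in pIVCL and 685 and 459 in sham, and cluster 6 held 78, 234 and 345 in pIVCL and 91 and 49 in sham. Erythroid marker molecules in the class were at 62.1, 1339 and 1525 CPM in pIVCL and 8.01 and 39.4 in sham, and their part in the levels was not tested. Kupffer Bmpr2 was 72.6, 69.3 and 88.6 in pIVCL and 106 and 108 in sham (log2 fold change -0.51 ± 0.15 SE, edgeR adjusted p = 0.209). Kupffer Acvrl1, at the levels given above, had a log2 fold change of 0.39 ± 0.14 (SE, edgeR adjusted p = 0.282). The difference of the pIVCL effect, endothelial minus Kupffer, was -0.65 ± 0.15 for Acvrl1 (SE, edgeR interaction adjusted p = 0.0731) and 0.60 ± 0.15 for Id1 (adjusted p = 0.0829). None of the genes passed that interaction test, which 1.35% of 9402 genes passed, and none passed for endothelial minus stellate cells, where 0.58% of 7587 genes passed. A macrophage cluster with Clec4f in under 50% of its cells was kept out of the Kupffer class by a limit chosen once the clusters were known, and it made up 2.18, 2.28 and 2.88% of pIVCL and 0.929 and 0.942% of sham cells.

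Conventional dendritic cells gave 0 of 6 genes past the threshold in edgeR (0.218% of 6433 genes passed). In DESeq2 it was 0 of 10 (15 of 13680 genes passed). In edgeR 1 reached an unadjusted p under 0.05 (9.96% of all genes). That gene was Id1, at 26.4, 77.7 and 33.9 in pIVCL and 16.8 and 9.48 in sham, from 10, 66 and 15 molecules in pIVCL and 7 and 4 in sham (log2 fold change 1.83 ± 0.56 SE, edgeR adjusted p = 0.221). T cells gave 0 of 5 past the threshold in edgeR and 0 at an unadjusted p under 0.05, where no gene passed the adjusted threshold (0% of 7651) and 4.48% of all genes the unadjusted one. In DESeq2 it was 0 of 10 (1 of 13562 genes passed). T-cell Bmp2 was 9.02, 461 and 0 in pIVCL and 410 and 59.3 in sham, while endothelial marker molecules among T cells were 230, 5675 and 412 in pIVCL and 3163 and 534 in sham.

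**Figure D4:**
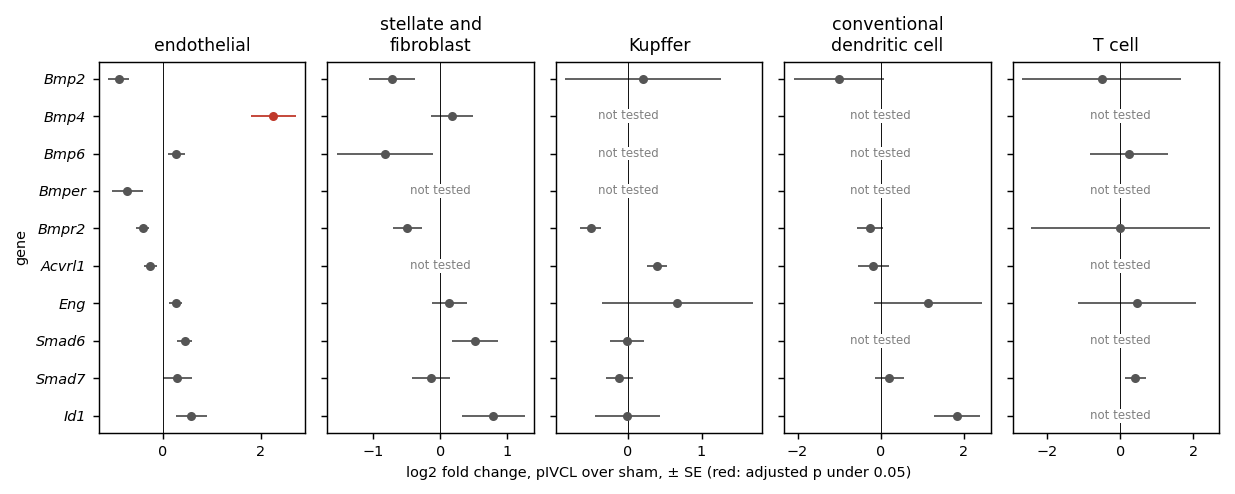
Log2 fold change of pIVCL over sham with its standard error (horizontal axes, not shared between panels) for the 10 genes in 5 cell classes. Bmp4 in endothelial cells, at 2.26, is the only red point (adjusted p under 0.05), and genes that failed the filter on low counts are marked as not tested.

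Cluster 17, which stayed unnamed because it carried mesothelial and fibroblast markers (led by Col1a1, Igfbp5 and Upk3b), had lower Bmp2 after pIVCL. Bmp2 fell there to 35.6, 54.1 and 66.0, against 170.7 and 149.7 in sham (log2 fold change -1.61 ± 0.30 SE, edgeR adjusted p = 0.0288), and it was the 1 of 9 genes tested that passed, against 1.5% of 7422 genes, with 2 at an unadjusted p under 0.05, against 13.2%. Leaving out any library except pIVCL 1 ended this call, with adjusted p up to 0.248. Endothelial marker molecules in cluster 17 were 473, 418 and 526 CPM in pIVCL and 1418 and 1266 in sham, moving with Bmp2, and their part in it was not tested.

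Of the other genes of the pathway, 28 were tested in endothelial cells, from 6 lists named by role, and 2 passed, a share near the 5.34% of all genes tested. Crim1, which encodes a membrane protein that binds BMPs inside and at the surface of the producing cell, rose to 921, 850 and 1024 in pIVCL, against 467 and 529 in sham (log2 fold change 0.81 ± 0.14 SE, edgeR adjusted p = 0.0185). It was the 1 of 7 antagonists and modulators that passed. Gja5, which encodes the arterial gap-junction protein connexin 40, fell to 7.26, 16.0 and 7.91 in pIVCL, against 30.6 and 26.8 in sham (log2 fold change -1.51 ± 0.31, edgeR adjusted p = 0.0381), as the 1 of 8 endothelial BMP and ALK1 target genes that passed (median log2 fold change of the list 0.33). Gja5 is among the leading genes of cluster 14, which held 2.31, 2.19 and 3.20% of endothelial cells in pIVCL and 5.50 and 5.59% in sham, and the part of that share in the Gja5 level was not tested. Without either sham library or without pIVCL 3 neither of these genes passed.

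Among the lists with no gene past the threshold, Smad1, the signal-transducing SMAD, had 210, 172 and 190 in pIVCL and 132 and 141 in sham (edgeR adjusted p = 0.129), and Smad5 had an adjusted p of 0.268. Acvr1, which encodes the type I receptor ALK2, had 97.6, 89.0 and 107 in pIVCL and 66.2 and 67.3 in sham (edgeR adjusted p = 0.0695), and Acvr2b followed with an adjusted p of 0.58. Gdf2 and Bmp5 were the only other ligands tested in endothelial cells (edgeR adjusted p = 0.409 and 0.823), and of the iron genes Slc40a1 (ferroportin) and Hfe had the lowest p (adjusted p = 0.444 and 0.83).

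In cluster 18, 4 of 18 pathway genes tested passed, against 5.39% of all genes. Gja4, which encodes connexin 37, fell to 9.43, 18.3 and 4.18 in pIVCL, against 407 and 272 in sham, from 4, 5 and 1 molecules in pIVCL and 141 and 56 in sham (log2 fold change -5.00 ± 0.38 SE, edgeR adjusted p = 1.35e-11). Id3, a BMP target of the same family as Id1, fell to 823, 614 and 364 in pIVCL, against 1362 and 1377 in sham (-1.22 ± 0.26, edgeR adjusted p = 0.00325), and missed the threshold inside batch 2021.3 (-0.74, adjusted p = 0.0609) and in a model that held batch (-0.76, adjusted p = 0.0683). Id4, of the same family, rose to 137, 139 and 171 in pIVCL, against 37.5 and 43.6 in sham (1.83 ± 0.36, edgeR adjusted p = 0.000606). Smad1 rose to 210, 168 and 163 in pIVCL, against 89.5 and 82.4 in sham (1.03 ± 0.30, edgeR adjusted p = 0.0358), but lost the threshold in 6 of 11 alternatives. These were the removal of any 1 library (adjusted p between 0.0526 and 0.233) and DESeq2 (0.385). Id1 in the same cluster overlapped between the groups, with 146, 201 and 104 in pIVCL and 101 and 150 in sham. Genes of these lists were open to the clustering that formed cluster 18, whereas the 10 genes were not. In cluster 0 Crim1 was the 1 pathway gene that passed (1.12 ± 0.18, edgeR adjusted p = 0.00923), and it did not pass without sham 1 (adjusted p = 0.420) or without sham 2 (0.194). In cluster 0, 0 of 9 of the 10 genes tested passed in edgeR, and 3 reached an unadjusted p under 0.05, against 0.525% and 11.9% of 9708 genes. DESeq2 gave 0 of 10 there, against 87 of 14760 genes.

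Stellate cells carried most Gdf2 and Bmp10 molecules, the ligands that signal to endothelium, in 4 of 5 libraries, with sham 2 as the exception. Of all Gdf2 molecules 86.2, 93.3 and 87.6% in pIVCL and 71.1 and 36.1% in sham were in the stellate class, and of Bmp10 88.0, 95.2 and 94.4% in pIVCL and 83.7 and 42.7% in sham. In sham 2 the unnamed clusters held 48.5% of Gdf2 and 48.5% of Bmp10 molecules. Among these clusters, cluster 27 carried stellate and Kupffer markers together and had 19 cells in sham 2, against 29 in the stellate class. The part of each unnamed cluster in these shares was not tested. In stellate cells Gdf2 had 1739, 1064 and 1060 CPM in pIVCL and 1465 and 949 in sham (edgeR adjusted p = 0.838), and Bmp10 had 722, 463 and 465 in pIVCL and 553 and 249 in sham (adjusted p = 0.61). Bmp5 had 1249, 564 and 634 in pIVCL and 1217 and 740 in sham (adjusted p = 0.92). The groups overlapped for these ligands. Gdf6 had 69.7, 28.0 and 58.3 in pIVCL and 15.9 and 0 in sham, from 90, 51 and 36 molecules in pIVCL and 5 and 0 in sham, and did not pass (edgeR adjusted p = 0.267), its groups not overlapping as for 32.8% of genes in stellate cells. None of the pathway genes passed in stellate cells, where Fstl1, which encodes follistatin-like 1, had the lowest p (910, 833 and 1172 in pIVCL, 585 and 237 in sham, edgeR adjusted p = 0.157), followed by Tgfbr3 (adjusted p = 0.235).

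**Figure D5:**
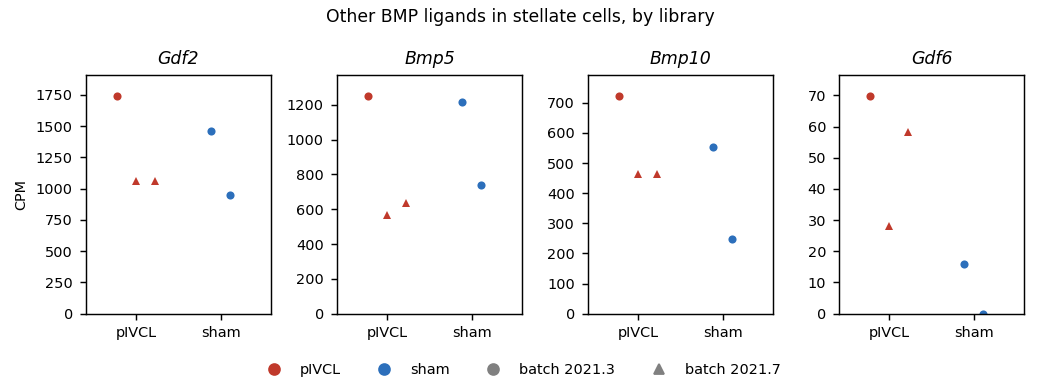
CPM in stellate cells (vertical axes, from 0) for Gdf2, Bmp5, Bmp10 and Gdf6, with 1 point per library, pIVCL left of sham, circles for batch 2021.3 and triangles for batch 2021.7. Gdf6 is the only one of the 4 whose pIVCL points (28.0 to 69.7) all lie above the sham points (15.9 and 0).

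In Kupffer cells none of the pathway genes passed either, and Hfe (337, 344 and 365 in pIVCL, 264 and 253 in sham, edgeR adjusted p = 0.232) and Fstl1 (adjusted p = 0.369) had the lowest p. In conventional dendritic cells these were Id2 (adjusted p = 0.405) and Smad5 (adjusted p = 0.513), and in T cells Smad1 and Smad4 (adjusted p = 0.994 for both).

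The genes whose levels ran most like those of a ligand were found by Pearson correlation of log2(CPM + 1) over 42 class-by-library sums of 10 classes, which share libraries and depth. For Bmp2 these were Clec4g (r = 0.93), Dnase1l3, Rapgef5, Flt1 and Cyp4b1. For Bmp4 they were Cachd1 (r = 0.90), Egfem1, Fbln5, C1qtnf7 and Ctsk. For Bmp6 they were Slc39a8 (r = 0.88), Ntn4, Cdr2l, Sema3f and Inhbb, and for Id1 Coprs (r = 0.82), Tmem59, Gprc5c, Anxa3 and St3gal4.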

How the data were processed

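Liver non-parenchymal cells of 5 libraries were captured with the BD Rhapsody system, and the deposited tables hold molecule counts per cell and gene after the error correction of the BD pipeline, version 1.9.1 with a GRCm39 reference, per the file headers. Whether counting used strand is not given in the sources used here, so Txndc5, Gm15217 and Fpgs, which lie on the other strand over Bmp6, Bmp4 and Eng, may share reads with them. Cells with at least 500 molecules, 200 genes and at most 25% mitochondrial molecules were kept, and the 3% with the highest doublet score in each library were removed, since automatic calling marked 0.0815%. Scanpy 1.11.5 clustered 16670 cells (2000 variable genes without the 10 genes, 30 components, Leiden resolution 1). Molecules were summed per class and library, and classes with at least 20 cells in every library were tested with edgeR 4.0.16 (quasi-likelihood, TMM, filterByExpr) in R 4.3.3, with Benjamini-Hochberg adjustment over all genes of a class at 0.05. DESeq2 1.42.0 was an alternative, as were scaling, filters, batch, left-out libraries, clustering and thinning. Shares of cells were compared after thinning to 1000 molecules, and intervals cover counting error only. The 10 genes and the lists were chosen with earlier results of these data known. Of the lists, genes that passed are named, or otherwise the 2 with the lowest p in each list of endothelial cells or in a class, together with the 5 genes most correlated with Bmp2, Bmp4, Bmp6 and Id1. RefSeq promoters were matched by symbol for 6 of the 10 genes, the others being Bmp2, Acvrl1, Smad7 and Id1.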

Additional observations from a re-analysis of the deposited data

How the results depend on the processing

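Of 448 values of single genes under an alternative, 375 kept direction and side of the threshold, 44 lost the threshold, 25 gained it and 4 reversed. The reversals were endothelial Smad7 at -0.32 with batch as a term, -0.32 within batch 2021.3 and -0.048 without pIVCL 2 (from -0.048 to 0.53 with 1 library left out), and stellate Bmp2 at 0.28 with Leiden resolution 2. The cause was not tested. The number of the 10 genes passing in endothelial cells (1, against 605 of 11334 genes) changed with the setting. It was 3 with no filter on low counts (1816 of 17167 genes) and 3 with the DESeq2 Wald test (963 of 17167). With the stricter cell filter it was 2 (651 of 11087), as without the large-vessel and cycling clusters (744 of 10939). It was 0 with batch as a term (335 of 11334), doublets kept (604 of 11345) or Leiden resolution 2 (607 of 11295). It was also 0 with the 10 genes among the variable genes (608 of 11345) and without cluster 18 (519 of 11260). Without pIVCL 1, pIVCL 2 and pIVCL 3 it was 3, 1 and 2, against 2618 of 11549, 190 of 11481 and 216 of 11378 genes. With the replicate block the number in endothelial cells was 2 (252 of 11334 genes), with 0 pathway genes. In clusters 0, 1, 9 and 17 it was then 1, 1, 0 and 0, against 94 of 9708, 37 of 8902, 7 of 6643 and 25 of 7422 genes. Same-numbered libraries had deviations from their group means correlated at -0.083 and 0.0123 over 2 pairs. The deviations of the 2 sham libraries mirror each other, so these values cannot tell whether same-numbered libraries were paired. Of the pairs, pIVCL 1 and sham 1 also shared batch 2021.3. With no filter the count was 1 in Kupffer cells (415 of 15805 genes) and 1 in dendritic cells (125 of 13681). It was 2 in each of clusters 0, 1 and 9, against 239 of 14760, 157 of 14189 and 88 of 12631 genes. Batch as a term gave 1 in stellate cells (152 of 7779 genes) and 2 in cluster 9 (10 of 6643). Counts of the 10 genes from fits with 1 library left in a group are not given. The DESeq2 Wald test gave 1 in clusters 1 (38 of 14189 genes) and 18 (142 of 12507). Leaving out 1 pIVCL library gave 0 to 1 in clusters 0 and 17, 0 to 3 in cluster 1, 1 to 3 in clusters 9 and 18, and 0 to 2 in cluster 14. The highest counts came without pIVCL 1 in clusters 0, 1, 9, 14 and 17. There 243 of 8760, 506 of 8561, 165 of 6889, 96 of 6467 and 186 of 7482 genes passed. In cluster 18 the highest came without pIVCL 2 (243 of 5260 genes). Pathway genes passing in endothelial cells (2) were 9 with no filter, 5 within batch 2021.3 and 0 to 7 with a library left out, those in Kupffer cells 0 to 1 with a library left out, and those in stellate cells 2 with no filter, 1 with batch as a term, 2 within batch 2021.3, 1 with the DESeq2 Wald test, 1 with doublets kept and 0 to 1 with a library left out. Where 1 sham or, within batch 2021.3, 1 pIVCL library was left, it was assumed to vary like the other group. The fits without cluster 18, of single clusters and with the Clec4f-low cluster added to Kupffer cells, and the Bmp4 ratios with a library left out, were chosen after seeing the data. Depth limits genes that rest on few molecules, such as Bmper, Gdf6, Gja4 in cluster 18 and Id1 in dendritic cells.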

Other observations

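Classes with fewer than 20 cells in a library were not tested. Cholangiocytes held Id1 at 416, 459 and 566 CPM in pIVCL 1, pIVCL 2 and pIVCL 3 and at 178 and 167 in sham 1 and sham 2, with 20, 49 and 15 cells in pIVCL and 43 and 32 in sham. Hepatocytes held Hamp, the hepcidin gene that BMP2 and BMP6 raise, at 393, 1219 and 718 in the pIVCL libraries and at 618 and 13.5 in the sham libraries, where sham 2 had 4 hepatocytes and 1 Hamp molecule.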
